A study of Drosophila melanogaster with 27 samples.

Results

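Gustatory receptors (gene symbols Gr) and ionotropic receptors (Ir) are the receptor families through which the fly tastes and, in part, smells its food and surroundings. Here they comprise every gene in the deposited table whose symbol is Gr or Ir followed by digits and a lower-case letter, which gave 71 of 11923 rows, 43 of them Gr and 28 Ir. The rows were compared between heads of 50-day-old and 3-day-old Drosophila melanogaster females. Both ages are Oregon-R, a wild-type strain, raised at 25 °C on standard food, with 3 libraries per age and 20 pooled heads in each library. The labels name no transgene and no treatment other than age. The series holds 27 samples in 9 groups, in which diets and fat body overexpression of Lsp2 or Rheb were also tested. The other 21 samples are not analysed here.

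A Gr gene encodes a membrane protein that works as a ligand-gated channel in taste neurons of the labellum, pharynx and legs, and a few Gr genes act in the antenna, the brain or the gut. Ir genes descend from ionotropic glutamate receptors. An Ir channel is built from a tuning subunit, which sets what is sensed, and a broadly used co-receptor, and such channels serve smell in the antenna, taste, and the sensing of temperature and humidity. Each receptor is made by few neurons, so its transcripts are scarce in RNA of a whole head, and in such RNA fewer cells of a type and less RNA per cell cannot be told apart.

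The values are read as FPKM, sequenced fragments scaled for gene length and library depth, so that levels of different genes are given per length. The libraries summed to 504504 to 539645 FPKM at 50 days and 427992 to 502587 FPKM at 3 days. The table states no depth. For a rough estimate, the median of value times gene length within a preset low window was taken as the worth of a fragment. It gave 18892467 to 21202330 fragments in a 50-day library and 17849077 to 19971097 in a 3-day library. The window bounds what this estimate could give. On it, 0.5 FPKM is about 12.3 fragments for a Gr gene of median length and 20.9 for an Ir gene. Eye, neuronal, glial and antennal markers were all measured: ninaE ran from 12503 to 16014 FPKM at 50 days and from 13909 to 16797 at 3 days, elav from 15.1 to 17.5 and from 22.4 to 24.6, repo from 8.65 to 9.44 and from 9.53 to 10.7, and Orco from 29.5 to 53.0 and from 69.2 to 93.3. Of 6 genes on an ovary germline list, vas, osk, nos, bam and otu stayed at or under 0.161 FPKM and gcl had 10.1 to 13.7 FPKM, and no testis gene on the list passed 0.802 FPKM. Between the ages, 3508 of the 9187 genes tested differed in limma's test at a Benjamini-Hochberg adjusted p under 0.05, 1881 of them lower and 1627 higher at 50 days. The split depended on scaling: 1152 of 3486 calls were higher with values as deposited and 753 of 3927 after rescaling the libraries to the same sum.

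Few receptor genes were detected. In the 50-day libraries 18, 20 and 18 of the 71 rows lay above 0.5 FPKM (25.4%, 28.2% and 25.4%), and in the 3-day libraries 21, 22 and 21 rows did (29.6%, 31.0% and 29.6%). At this threshold and with values as deposited, every 50-day library was below every 3-day library, with a mean difference of -3.76 percentage points. Among all 11923 rows, 75.6% to 76.2% of rows lay above 0.5 FPKM at 50 days and 76.6% to 77.8% at 3 days. With the libraries multiplied by trimmed-mean scaling factors, the receptor difference was -1.41 points and the ages overlapped. At 0.1 FPKM the ages overlapped too (45.1% to 56.3% at 50 days, 50.7% to 57.7% at 3 days). At 1 FPKM they did not (8.45% to 16.9% and 19.7% to 22.5%). The shares over all rows did not overlap at 1 FPKM either, with 71.8% to 72.7% at 50 days and 72.9% to 73.9% at 3 days.

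The families differed in how many rows were seen. Of the 28 Ir rows, 10, 11 and 11 lay above 0.5 FPKM in the 50-day libraries (35.7%, 39.3% and 39.3%), against 11, 11 and 12 in the 3-day libraries (39.3%, 39.3% and 42.9%). Of the 43 Gr rows, 8, 9 and 7 did at 50 days (18.6%, 20.9% and 16.3%), against 10, 11 and 9 at 3 days (23.3%, 25.6% and 20.9%). In both families the highest 50-day share equalled the lowest 3-day share. At 1 FPKM the Ir rows stood further apart, with 17.9% to 28.6% above it at 50 days and 35.7% in each 3-day library. The shares over all rows did not overlap at that threshold either.

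**Figure D1:**
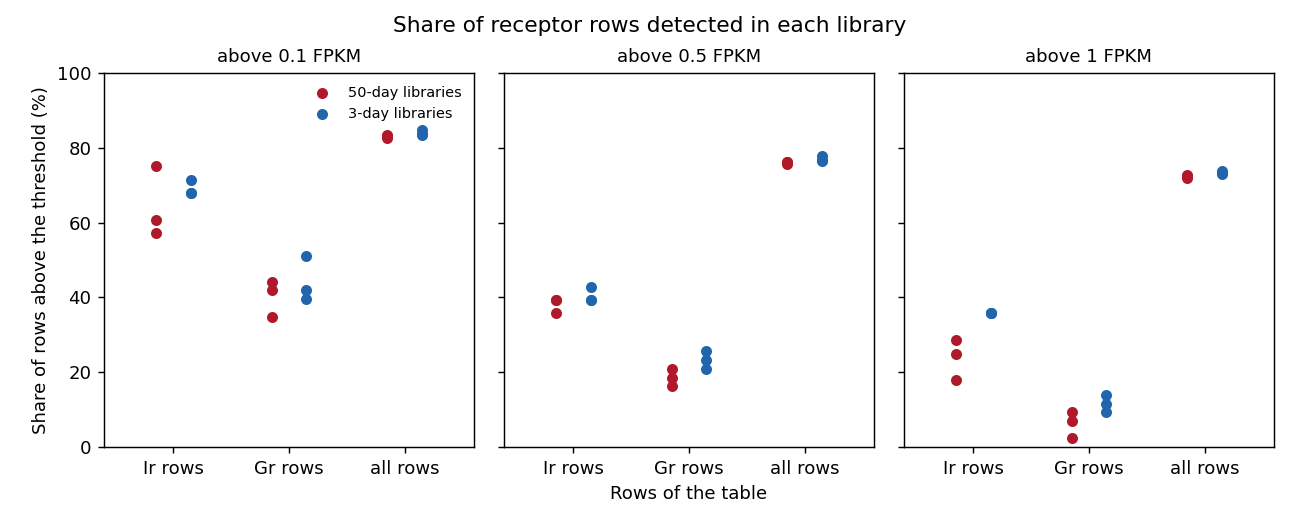
Each point is the share of rows (in percent, vertical axis) above 0.1, 0.5 or 1 FPKM in a library, for Ir rows, Gr rows and all rows of the table, with 50-day libraries in red and 3-day libraries in blue. At 1 FPKM the 50-day Ir shares of 17.9% to 28.6% all lie under the 35.7% of the 3-day libraries. The shares of all rows do not overlap there either (71.8% to 72.7% at 50 days, 72.9% to 73.9% at 3 days).

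A core of 15 receptors, 9 Ir and 6 Gr, exceeded 0.5 FPKM in all 6 libraries, while 42 receptors exceeded it in none. The value was exactly 0 in all 6 libraries for 9 receptors, 8 Gr and Ir94e, among them the bitter receptor Gr89a. The receptors with means just above 0.5 FPKM over the 6 libraries were Ir40a at 0.628 and Gr61a at 0.649, and those just below were Gr43a at 0.436 and Ir75c at 0.424. Summed over the family, the Ir rows reached 27.7, 35.6 and 29.4 FPKM at 50 days against 41.4, 44.1 and 48.3 FPKM at 3 days, with no overlap. The Gr rows summed to 8.74, 13.1 and 9.95 FPKM at 50 days against 11.4, 17.8 and 13.7 FPKM at 3 days. Of the 17.8 FPKM in 3-day replicate 2, Gr77a alone gave 4.41, and without Gr77a the ages still overlapped, with 13.1 FPKM in 50-day replicate 2 and 11.4 FPKM in 3-day replicate 1.

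**Figure D2:**
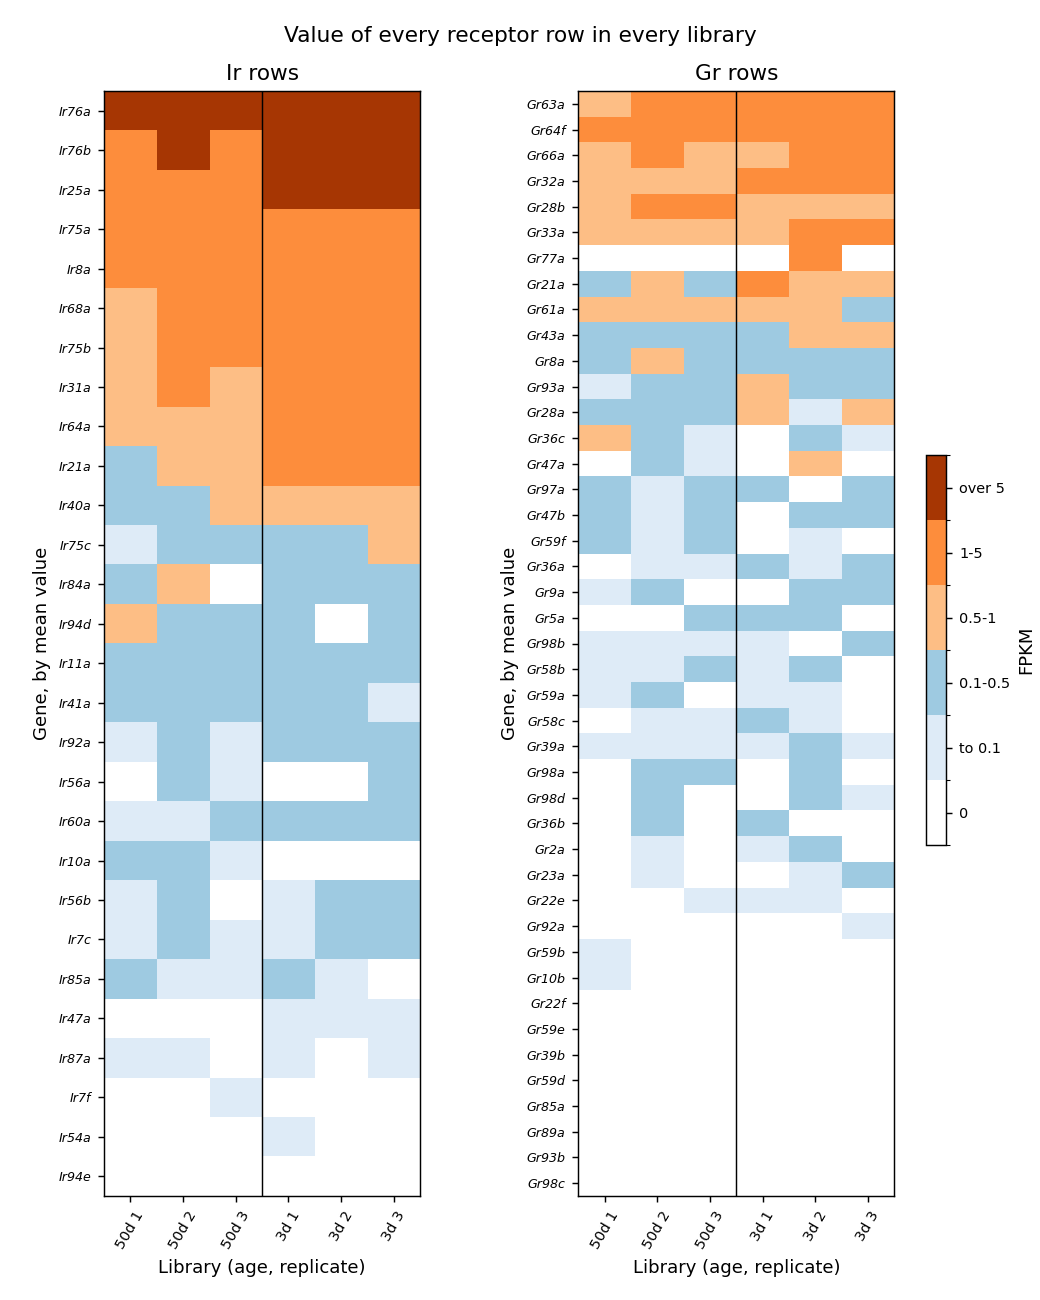
Every Ir row (left) and Gr row (right), ordered by mean value, is shown in the 3 libraries of 50-day heads and the 3 of 3-day heads, with the colour giving the class of the deposited value in FPKM. Ir76a, Ir76b and Ir25a lead the Ir rows, and Gr63a and Gr64f the Gr rows, while 9 rows are at 0 in every library.

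For the test of age, 20 receptors passed a mean of 0.5 FPKM over the 6 libraries, 11 Ir and 9 Gr, and the other 51 were not tested. Of those that passed, Gr21a, Gr61a, Gr77a and Ir40a had a mean of 0.5 FPKM or less at 1 of the ages. At an adjusted p under 0.05, 6 receptors fell at 50 days, all of them Ir genes (Ir21a, Ir25a, Ir31a, Ir64a, Ir68a and Ir76b), and 0 receptors rose. The background in the same fit was 38.2% of genes called, 20.5% lower and 17.7% higher. Before adjustment another 6 receptors had a limma p under 0.05, 4 lower and 2 higher. Without the mean-variance trend 11 were called, 9 lower and 2 higher. The 50-day libraries lay entirely below the 3-day libraries in 10 of 11 Ir and 2 of 9 Gr genes tested, where 28.2% of all genes tested did, and entirely above in 0 Ir and 2 Gr genes, where 25.5% did. The median log2 change was -0.48 over the 11 Ir genes, -0.26 over the 9 Gr genes and -0.0044 over all genes tested. Whether the families differ was not tested. The number called depended on single libraries: it was 2 when 50-day replicate 1 or 50-day replicate 3 was dropped, and 1, Ir76b, when 3-day replicate 1 was dropped. Of the 11 Ir genes, 10 had lower fitted levels at 50 days in the fit reported and in every alternative fit that tested them, the exception being Ir75a. Of the 9 Gr genes, 6 had lower fitted levels in every fit that tested them and 2, Gr28b and Gr61a, higher ones. Gr77a is among the 6 and enters the Gr median, but its sign was fixed by 3-day replicate 2, the only library where it was above 0.

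**Figure D3:**
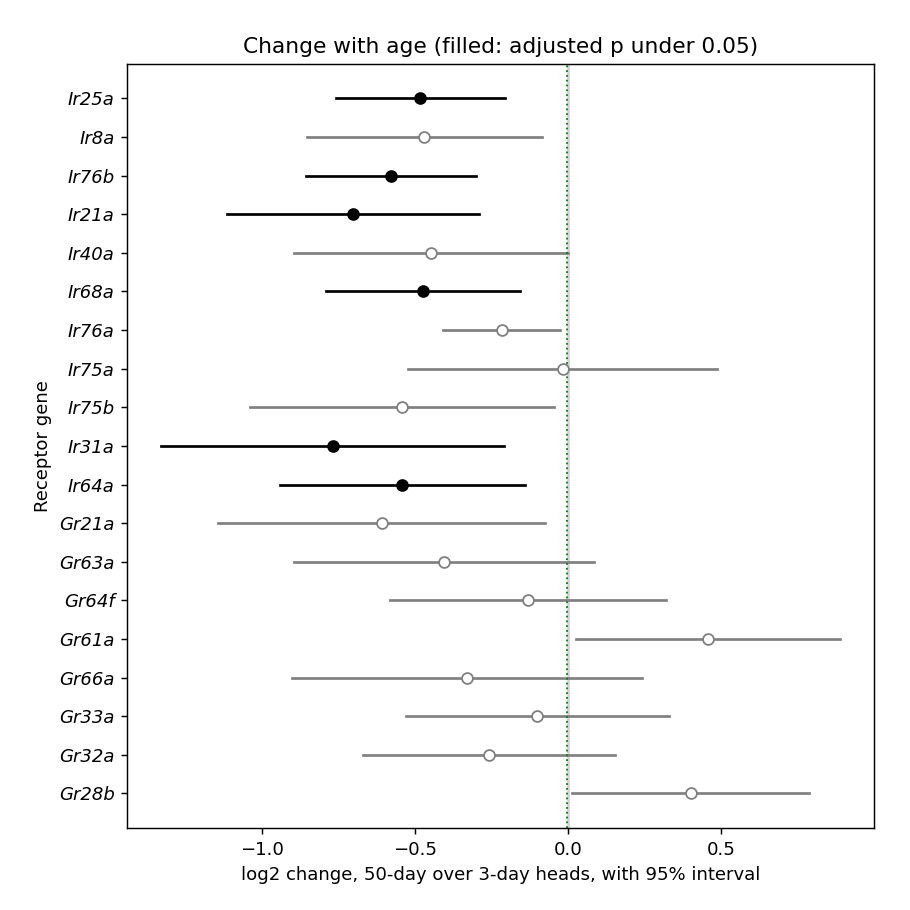
Each point is the log2 change of a receptor, 50-day over 3-day heads, with its 95% interval from limma (horizontal axis), filled where the adjusted p is under 0.05, and the green dotted line is the median of all genes tested. Filled points are 6 Ir genes between -0.77 and -0.47, and Gr61a and Gr28b stand to the right of 0 without passing. Gr77a is left out, because it was at 0 in 5 of 6 libraries.

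Of the 3 co-receptors, Ir76b and Ir25a fell and Ir8a was not called. Ir76b, a co-receptor for amine-sensing antennal channels and for salt and amino acid taste, had 4.14, 5.50 and 4.39 FPKM at 50 days against 6.82, 7.99 and 8.51 FPKM at 3 days. All 50-day libraries lay below all 3-day libraries, and 50-day replicate 2 was the highest of its age. The log2 change was -0.58 (SE 0.12, 95% interval -0.86 to -0.30, limma adjusted p 0.00696), and it was the receptor that was called under each of the 16 alternatives (adjusted p 0.00108 to 0.0275). Ir25a, the most widely used and most conserved co-receptor, had 3.31, 4.45 and 3.29 FPKM at 50 days against 5.82, 5.65 and 5.65 FPKM at 3 days. Its 3-day libraries were close together and none of the 50-day libraries reached them, and Ir25a fell by 0.48 on the log2 scale (SE 0.12, limma adjusted p 0.0149). The call was lost without 3-day replicate 1 (adjusted p 0.0545) or 50-day replicate 3 (0.0523), the range over alternatives being 0.00418 to 0.0545.

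Ir8a, the co-receptor for acid-sensing antennal channels, had 1.02, 1.62 and 1.07 FPKM at 50 days against 1.82, 2.15 and 2.08 FPKM at 3 days. The ages did not overlap, yet the log2 change of -0.47 (SE 0.17, 95% interval -0.85 to -0.084) missed the threshold at an adjusted p of 0.0570. Ir8a passed in 5 of the 16 alternatives and missed the threshold in the rest (limma adjusted p 0.0213 to 0.166). It passed without 50-day replicate 2, the highest of its age (-0.61, adjusted p 0.0313). It also passed when genes down to a mean of 0.1 FPKM were tested, with values as deposited, after rescaling to the same sum and without the variance trend. The proportions among the co-receptors overlapped between the ages: Ir8a was 0.307 to 0.365 of Ir25a at 50 days and 0.313 to 0.381 of it at 3 days, and Ir76b was 1.24 to 1.33 times Ir25a at 50 days and 1.17 to 1.51 times at 3 days. Ir25a lies at 4830846 to 4835300 on chromosome arm 2L and Ir76b at 20108484 to 20111534 on 3L, in the BDGP6 assembly, and neither overlaps another protein-coding gene.

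Receptors for temperature and humidity form the next group, of which Ir21a, Ir40a and Ir68a were in the table and Ir93a is not analysed here. Ir21a, which serves cool sensing in the arista together with Ir25a, had 0.416, 0.564 and 0.563 FPKM at 50 days against 1.36, 1.29 and 1.03 FPKM at 3 days. The ages did not overlap, and Ir21a fell by 0.70 on the log2 scale (SE 0.18, limma adjusted p 0.0162). Its adjusted p was 0.0624 without 3-day replicate 1 and 0.0543 without 50-day replicate 1, which ended the call, and ran from 0.00287 to 0.0624 over alternatives. Ir21a also stood lower against its co-receptor, at 0.125, 0.127 and 0.171 of Ir25a at 50 days against 0.234, 0.229 and 0.183 of it at 3 days.

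Ir68a, a receptor of moist-sensing neurons, had 0.992, 1.24 and 1.25 FPKM at 50 days against 1.85, 2.10 and 1.84 FPKM at 3 days, without overlap. It fell by 0.47 on the log2 scale (SE 0.14, limma adjusted p 0.0276, range over alternatives 0.00596 to 0.0862). The call held without 3-day replicate 3. It was lost without 50-day replicate 1 (0.0862), 50-day replicate 2 (0.0617), 50-day replicate 3 (0.0661), and also when 3-day replicate 1 (0.0654) or 3-day replicate 2 (0.0798) was dropped. Ir40a, a receptor of dry-sensing neurons, had 0.429, 0.345 and 0.524 FPKM at 50 days against 0.789, 0.933 and 0.745 FPKM at 3 days. These values did not overlap either, but the change of -0.45 (SE 0.19, 95% interval -0.89 to 0.0018) was not called (adjusted p 0.105). Ir40a was called with no filter (0.0255) and without the mean-variance trend (0.0148).

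**Figure D4:**
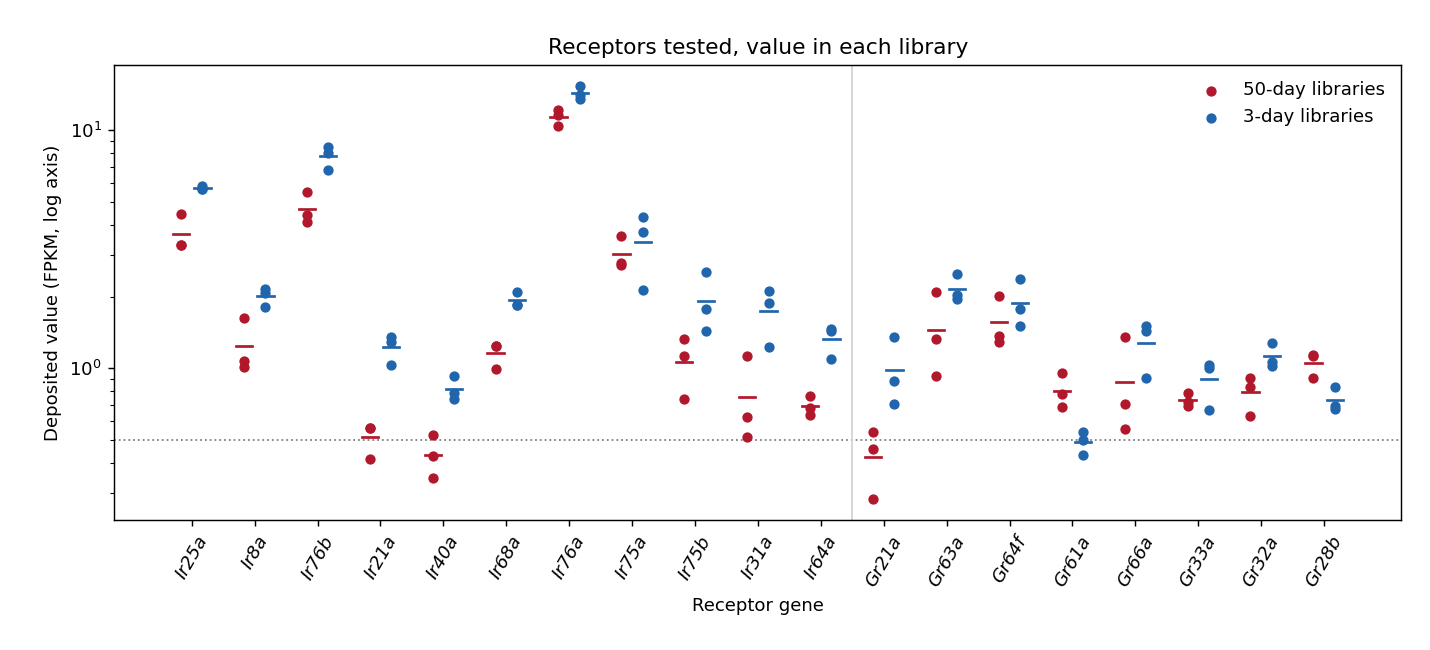
Points are the deposited FPKM values (vertical log axis) of 19 tested receptors in each of 3 libraries of 50-day heads (red, left) and 3 of 3-day heads (blue, right), and short bars are means. The dotted line marks 0.5 FPKM. The red points of Ir25a, Ir8a, Ir76b, Ir21a, Ir40a and Ir68a lie under the blue ones, those of Ir75a and Gr64f overlap them, and those of Gr61a and Gr28b lie above.

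Among the antennal olfactory Ir genes, 9 were in the table and 5 were tested, of which Ir31a and Ir64a fell. Ir31a, a tuning subunit for a keto acid that works with Ir8a, had 0.628, 1.13 and 0.515 FPKM at 50 days against 1.88, 1.23 and 2.11 FPKM at 3 days. The libraries nearest to each other were 50-day replicate 2 and 3-day replicate 2, and Ir31a fell by 0.77 on the log2 scale (SE 0.24, limma adjusted p 0.0382, range over alternatives 0.00856 to 0.116). Dropping 50-day replicate 1 (0.103) or 3 (0.109), or 3-day replicate 1 (0.116) or 3 (0.103), ended the call. Ir64a, the acid receptor of the sacculus, had 0.685, 0.635 and 0.766 FPKM at 50 days against 1.46, 1.10 and 1.44 FPKM at 3 days. The ages did not overlap, and Ir64a fell by 0.54 on the log2 scale (SE 0.17, limma adjusted p 0.0406, range over alternatives 0.00978 to 0.126). Dropping any 50-day library ended the call (0.0860, 0.110 and 0.0830 for replicates 1 to 3), as did dropping 3-day replicate 1 (0.126) or 3 (0.0875) and a filter at 1 FPKM (0.0584).

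Ir76a, which works with Ir25a and Ir76b in amine-sensing neurons, was the most abundant receptor. It had 10.4, 12.1 and 11.6 FPKM at 50 days against 13.5, 14.1 and 15.4 FPKM at 3 days, without overlap. The log2 change of -0.22 (SE 0.083, 95% interval -0.41 to -0.025) was not called in the fit reported (adjusted p 0.0722), and was called with the values as deposited (adjusted p 0.0337) or rescaled to the same sum (0.0106), within a range of 0.0106 to 0.178 over alternatives. Because Ir76a changed less than its co-receptor, it was 2.20 to 2.64 times Ir76b at 50 days and 1.76 to 1.98 times at 3 days. The exons of Ir76a share 297 bases with CG14102 on the opposite strand, which had 3.99 to 4.94 FPKM at 50 days and 4.64 to 5.45 FPKM at 3 days. Whether strand was used in counting is not given in the sources used here, so fragments in that stretch cannot be assigned.

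The Ir75 genes, acid receptors of the coeloconic sensilla, lie side by side on 3L, with 151 bases between Ir75a (17815570 to 17817921) and Ir75b (17818073 to 17820193) and 299 bases between Ir75b and Ir75c (17820493 to 17822834). Ir75a had 2.71, 3.59 and 2.77 FPKM at 50 days against 2.14, 3.76 and 4.31 FPKM at 3 days. The ages overlapped fully, and the log2 change of -0.018 had a 95% interval of -0.52 to 0.49 (SE 0.22, adjusted p 0.957). Ir75b had 0.746, 1.33 and 1.12 FPKM at 50 days against 1.78, 1.44 and 2.54 FPKM at 3 days, a log2 change of -0.54 (SE 0.22, 95% interval -1.04 to -0.047) that was not called (adjusted p 0.0800). Ir75c, under the filter, had 0.09155, 0.377 and 0.379 FPKM at 50 days against 0.449, 0.412 and 0.839 FPKM at 3 days. These neighbours are related copies, so the split of fragments between them is uncertain. Against the co-receptor Ir8a, Ir75a stood at 2.66, 2.21 and 2.58 times at 50 days and 1.17, 1.75 and 2.07 times at 3 days, whereas for Ir75b the ratios overlapped, at 0.734 to 1.05 and 0.668 to 1.22.

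Of the Gr genes the carbon dioxide receptors, Gr21a and Gr63a, which work together in antennal neurons, had the lowest fitted changes apart from Gr77a. Gr21a had 0.282, 0.539 and 0.457 FPKM at 50 days against 1.35, 0.887 and 0.707 FPKM at 3 days. The ages did not overlap, and the change of -0.61 (SE 0.23, 95% interval -1.14 to -0.074) was not called (adjusted p 0.0708). It was called with no filter (0.0474), after rescaling to the same sum (0.0374) and without the mean-variance trend (0.0322), within a range of 0.0322 to 0.226. Gr63a had 0.932, 2.10 and 1.33 FPKM at 50 days against 1.96, 2.04 and 2.498 FPKM at 3 days. Here 50-day replicate 2 lay within the 3-day range. The change was -0.40 (SE 0.21, adjusted p 0.169), and it was -0.62 without 50-day replicate 2 (called, adjusted p 0.0418) and -0.23 without 50-day replicate 1 (0.439), the ends of the range over alternatives.

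Of the sugar receptors, 4 were in the table, 2 were tested and limma called 0 (1, Gr61a, at an unadjusted p under 0.05). Gr64f, the broadly required sugar co-receptor, had 1.37, 2.02 and 1.29 FPKM at 50 days against 1.51, 1.78 and 2.39 FPKM at 3 days, with overlap and a log2 change of -0.13 (SE 0.20, 95% interval -0.58 to 0.32, adjusted p 0.627). Its exons share 53 bases with CG11593. Gr61a, a glucose receptor, had 0.690, 0.952 and 0.780 FPKM at 50 days against 0.5003, 0.538 and 0.432 FPKM at 3 days. Every 50-day library was above every 3-day library, but the change of 0.46 (SE 0.19, 95% interval 0.026 to 0.89) was not called in the fit reported (adjusted p 0.0883). It was called when genes down to a mean of 0.1 FPKM were tested (adjusted p 0.0466), with no filter (0.0176) and without the mean-variance trend (0.00936), and its adjusted p reached 0.342 after rescaling to the same sum. Relative to Gr64f, Gr61a stood at 0.503, 0.471 and 0.605 at 50 days against 0.331, 0.303 and 0.181 at 3 days.

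Gr43a, the fructose receptor that also serves as a nutrient sensor in the brain, had 0.499, 0.260 and 0.256 FPKM at 50 days against 0.286, 0.509 and 0.806 FPKM at 3 days, with overlap, and its exons share 155 bases with Dhx15. Gr5a, a trehalose receptor of the labellum, was at 0, 0 and 0.108 FPKM at 50 days and at 0.203, 0.220 and 0 FPKM at 3 days. Neither of them was tested. Gr64a to Gr64e are not analysed here.

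The bitter receptors were represented by 24 rows, of which 3 were tested and limma called 0 (0 also at an unadjusted p under 0.05). Gr66a, a marker of bitter neurons needed for caffeine taste, had 0.556, 1.35 and 0.711 FPKM at 50 days against 0.910, 1.503 and 1.43 FPKM at 3 days (log2 change -0.33, SE 0.25, 95% interval -0.90 to 0.24, adjusted p 0.324). Gr33a, required for many bitter responses, had 0.696, 0.791 and 0.725 FPKM at 50 days against 0.666, 1.03 and 1.002 FPKM at 3 days (log2 change -0.10, 95% interval -0.53 to 0.33, adjusted p 0.700). Gr32a, a bitter receptor that also senses a male pheromone, had 0.839, 0.633 and 0.911 FPKM at 50 days against 1.03, 1.28 and 1.07 FPKM at 3 days. Gr32a was the bitter receptor whose ages did not overlap, but its change of -0.26 (95% interval -0.67 to 0.15) was not called (adjusted p 0.286), and its exons share 164 bases with CG6230. Gr39a stayed between 0.0363 and 0.0946 FPKM at 50 days and between 0.0203 and 0.126 FPKM at 3 days.

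Gr28b and Gr28a, neighbours on 2L with 613 bases between them, encode receptors with roles beyond taste, including warmth and light avoidance for Gr28b. Gr28b had 0.911, 1.14 and 1.12 FPKM at 50 days against 0.672, 0.698 and 0.839 FPKM at 3 days. All 50-day libraries were above all 3-day libraries, with a change of 0.40 (SE 0.17, 95% interval 0.014 to 0.79) that was not called (adjusted p 0.0940), though it was with no filter (0.0288) and without the variance trend (0.0137), within a range of 0.0137 to 0.443. The gene has 5 annotated transcripts, which the table does not separate. Gr28a had 0.132, 0.126 and 0.198 FPKM at 50 days against 0.510, 0.0485 and 0.577 FPKM at 3 days, where 3-day replicate 2 lay below the whole 50-day group.

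The 51 receptors under the filter held 34 Gr and 17 Ir genes, and 0.839 FPKM (Ir75c in 3-day replicate 3) was the highest value among them. Of these, 31 were at 0 in some libraries and 11 were above 0 in all. The ages did not overlap in 3 of them, which are named after their values were seen. No share over all rows under the filter was taken, so this count has no background and is not read as a result. The shares of 28.2% lower and 25.5% higher without overlap cover only genes that passed the filter. Ir75c is given above. Ir47a was at 0 in all 50-day libraries and at 0.0573, 0.0583 and 0.0591 FPKM at 3 days. Ir10a had 0.293, 0.280 and 0.0831 FPKM at 50 days and was at 0 in all 3-day libraries. At these levels Ir47a and Ir10a rest on few fragments. The 13 Ir rows on none of the role lists stayed under the filter, the highest value being 0.812 FPKM for Ir94d in 50-day replicate 1.

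Some rows rest on a single library. Gr77a was at 4.41 FPKM in 3-day replicate 2 and at 0 in the other 5 libraries, and it passed the filter through that value alone, with an adjusted p of 0.319. It lies within the span of CG13252, on the opposite strand and with no shared exon bases. Gr2a was at 0.297 FPKM in 3-day replicate 2 and at or near 0 elsewhere, and its exons share 1186 bases with the neuronal gene futsch. In all, 16 of the 71 receptors overlap another protein-coding gene and 9 share exon bases with it.

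**Figure D5:**
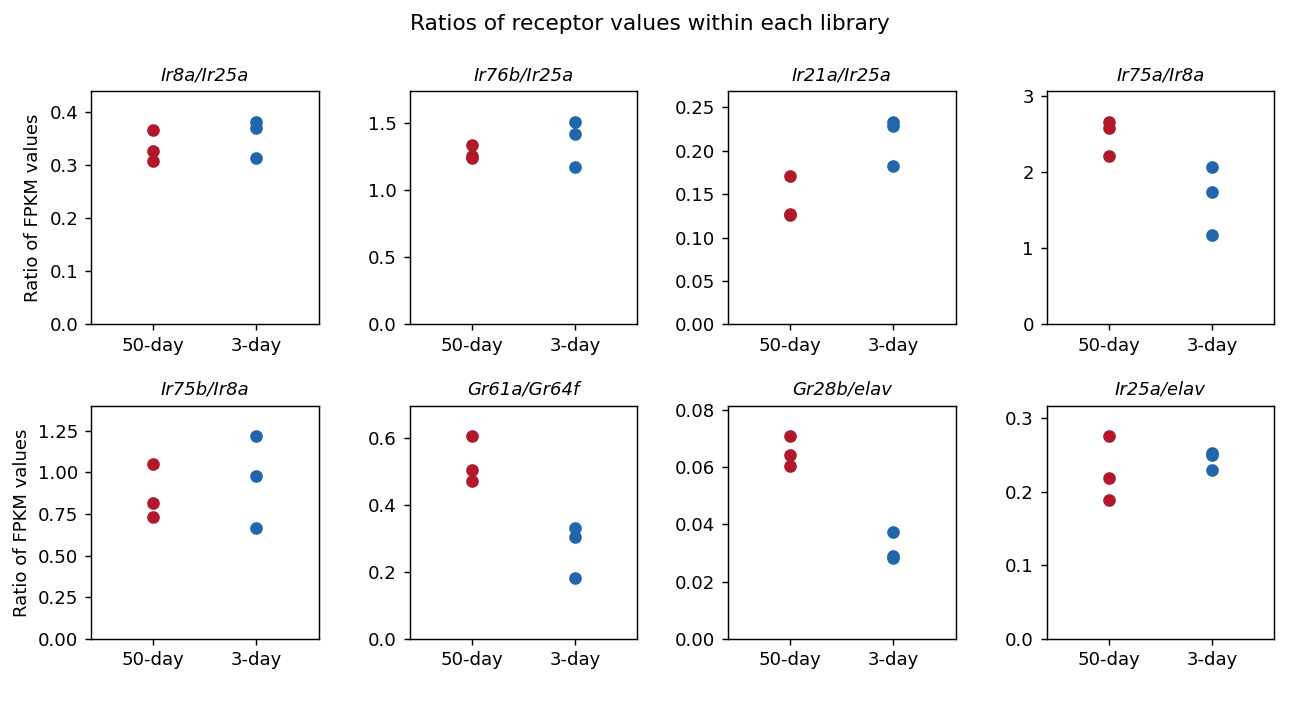
Points are ratios of FPKM values of named genes within each library (vertical axis, from 0), for 50-day heads (red, left) and 3-day heads (blue, right). The ratios of Ir8a and Ir76b to Ir25a overlap between the ages, Ir21a to Ir25a is lower at 50 days, and Ir75a to Ir8a, Gr61a to Gr64f and Gr28b to the neuronal gene elav are higher.

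Other sensory genes and neuronal markers were set beside the receptors, against the background of 20.5% of genes called lower and 17.7% higher. Of 60 odorant receptor genes listed, 50 were in the table and 37 were tested, of which 9 fell and Or65c rose at 50 days, and the median log2 change was -0.48. The 9 became 4 when 50-day replicate 1, 50-day replicate 3 or 3-day replicate 3 was dropped, and 18 after rescaling to the same sum. Orco, given below, is among the 9. So is Or88a, which passed the filter through the 3-day libraries (mean 0.979 FPKM, against 0.278 FPKM at 50 days). Of 8 pickpocket channel genes tested, 1 fell and 2 rose. On a list of TRP, TMC and otopetrin channel genes 5 were tested, all of them TRP channels (TrpA1, pain, pyx, wtrw and iav). Of these limma called 0 (0 also at an unadjusted p under 0.05), with a median log2 change of 0.030. Tmc was under the filter, and no otopetrin gene was tested. Orco, the co-receptor of odorant receptors, was at 29.5, 53.0 and 39.97 FPKM at 50 days against 69.2, 74.8 and 93.3 FPKM at 3 days (log2 change -0.87, SE 0.19, adjusted p 0.00785). On a broad list of olfactory accessory genes, not all particular to olfactory neurons, 6 of 12 tested fell and Snmp2 rose by 0.79 (adjusted p 0.000374). Among the 6 were lush, which encodes a pheromone-binding protein, at -1.03 (adjusted p 0.00119) and Obp83a at -0.91 (0.00571). Amt, an ammonium transporter of antennal sensilla, fell by 0.93 (0.00178), and Obp28a, pdm3 and Rdl were also among the 6. All 6 neuronal markers had negative fitted changes and 4 were called lower, as were 3 of 6 eye markers and 1 of 4 glial markers, with another glial marker higher. The neuronal markers summed to 279 to 336 FPKM at 50 days and 394 to 477 FPKM at 3 days. The part of these shifts in the receptor results was not tested beyond ratios within libraries. Ir25a stood at 0.219, 0.275 and 0.188 of elav at 50 days against 0.249, 0.229 and 0.252 of it at 3 days, so that the ages overlapped. Ir76b over elav overlapped too, at 0.251 to 0.341 and 0.292 to 0.380, while Gr28b over elav was 0.0602 to 0.0707 at 50 days and 0.0283 to 0.0375 at 3 days. Of the neuronal markers only elav was used in ratios, so these overlaps hold for elav alone. It was itself called lower (log2 change -0.41, limma adjusted p 0.00390), whereas nSyb was not called (-0.18, adjusted p 0.210). The 19 pairs of genes set in ratio were chosen after their values had been seen, and the ratios carry no test.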

How the data were processed

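RNA of polyadenylated transcripts from female heads was sequenced as paired-end reads of 150 bases, per the labels' protocols. fastp, HISAT2, HTSeq and the build BDGP6 are named in the submitters' processing notes, with no versions. The deposited table is called a count table by its name. Its entries are fractional, and they are read here as FPKM made by the authors, though TPM cannot be told apart from it if more genes were quantified. Between 3 and 6 positive values per library lie under 0.0001, less than a fragment is worth, so the values are not plain HTSeq counts, and the quantification step is not given in the sources used here. All 6 columns were matched to samples by library name, and 0 were left over. Of 126 Gr and Ir genes in the Ensembl 115 annotation of BDGP6, 55 are not analysed here.

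Libraries were multiplied by trimmed-mean factors, which were 1.11, 1.01 and 1.00 at 50 days and 0.972, 0.948 and 0.968 at 3 days (genes above 1 FPKM, 30% trimmed from ratios and 5% from levels). Genes whose scaled values averaged 0.5 FPKM or more were tested as log2(value + 0.5) with limma 3.58.1 in R 4.3.3 (mean-variance trend, age as the factor), and p-values were adjusted over all 9187 genes. Log2 changes on this scale understate changes of low genes. The code was tested on simulated data. Values in the text are as deposited. Precision is that of 3 libraries per age, called biological triplicates in the labels. Named receptors follow a rule: all called, the 5 highest per family, the best-known receptors of each role, and those next to 0.5 FPKM. From other lists the rule takes Orco and up to 4 called genes a list. The receptors, lists and rule were chosen with earlier results of these data known. Alternatives were other pseudocounts, filters, scalings and thresholds, no trend, a replicate block and leaving out each library; leaving out Gr77a was chosen after seeing the data.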

Additional observations from a re-analysis of the deposited data

How the results depend on the processing

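The 6 receptors called, all lower, became 11 with no filter on low values, 8 lower and 3 higher (Gr28b, Gr61a and Ir10a). The number was 11 without the variance trend, 9 lower and 2 higher, and 10, all lower, after rescaling to the same sum. With the replicate number as a block it was 3 (Ir21a, Ir25a and Ir76b). In that fit the limma adjusted p was 0.0704 for Ir68a, 0.0881 for Ir31a, 0.0748 for Ir64a and, outside the receptors, 0.0506 for Ekar. With a library left out 1 to 6 receptors were called. Rescaling to the same sum and using values as deposited moved the median change of all genes to -0.27 and -0.11, and the genes higher at 50 days to 753 of 3927 and 1152 of 3486, against 1627 of 3508. The calls over the other sensory lists, 26 as reported, became 40 after rescaling to the same sum. Same-numbered libraries did not deviate together (Pearson's r -0.18, -0.084 and -0.20 across genes), so the numbers do not pair the samples. The difference in the share above the threshold was -7.98 points at 1 FPKM and -1.41 with scaled values for all receptors, -0.78 with scaled values for Gr rows, and -4.76 at 0.1 FPKM and -11.9 at 1 FPKM for Ir rows, against -3.76, -4.65 and -2.38. The Ir difference was -1.19 without 50-day replicate 1 or 3-day replicate 3. The log2 difference of the summed Ir rows, -0.53, became -0.71 after rescaling to the same sum. With a library left out, the change of Gr64f ran from -0.27 to 0.015 and that of Ir75a from -0.25 to 0.16. The cause of these shifts was not tested. Pseudocounts of 0.1 and 1 left the same 6 receptors called. At 0.5 FPKM, the filter for testing, the rough depth estimate, bounded by its preset window, gives 12.3 fragments for a Gr gene and 20.9 for an Ir gene of median length.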

Other observations

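Relatives of the receptors in other channel families were also measured. Ionotropic glutamate receptors, from which Ir genes descend, had 10 of 11 rows tested, of which 5 fell and 1 rose at 50 days (limma adjusted p under 0.05), where 20.5% of all genes tested fell and 17.7% rose. GluRIA, an AMPA-type subunit, averaged 6.30 ± 0.787 FPKM at 50 days and 10.51 ± 1.35 FPKM at 3 days (SD, n = 3 each; log2 change -0.59, adjusted p 0.00478). Nmdar1, the obligate NMDA receptor subunit, changed by -0.53 (adjusted p 0.00444) and the kainate-type Ekar by -0.54 (0.0188). The Ekar call was lost when 50-day replicate 1 (0.0591), 50-day replicate 2 (0.0662), 3-day replicate 1 (0.0725) or 3-day replicate 2 (0.0627) was dropped. GluRIIA, a subunit of the neuromuscular junction, rose by 0.50 (adjusted p 0.00653), but with libraries rescaled to the same sum it was 0.24 and not called (adjusted p 0.256).

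Of 27 pickpocket sodium channel rows, 8 were tested. ppk29, a channel of pheromone-sensing taste neurons, fell to 0.543 ± 0.0589 FPKM at 50 days, against 1.38 ± 0.112 FPKM at 3 days (SD, n = 3 each; log2 change -0.78, adjusted p 0.00826). ppk10 had 0.904, 1.02 and 0.758 FPKM at 50 days against 0.337, 0.276 and 0.105 FPKM at 3 days (0.98, adjusted p 0.0104), and ppk7 had 1.02, 1.65 and 1.61 FPKM against 0, 0.116 and 0.773 FPKM (1.43, adjusted p 0.0131). Both were called higher, and both passed the filter of 0.5 FPKM through the 50-day libraries, their 3-day means being 0.239 for ppk10 and 0.296 FPKM for ppk7.  Among the odorant receptors, Or65c had 6.52, 9.27 and 11.02 FPKM at 50 days against 4.17, 2.82 and 5.92 FPKM at 3 days and rose (log2 change 1.10, adjusted p 0.00957), while Or65a had 0.923, 1.21 and 1.13 FPKM against 2.63, 3.31 and 4.59 FPKM and fell (-1.23, adjusted p 0.00189). Or65a and Or65c are related copies, so the split of fragments between them is uncertain. Or9a had a log2 change of -1.01 (adjusted p 0.0300), a call that was lost in 6 of its alternative fits.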
